A study of Homo sapiens with 4 samples.

Results

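The regions around human microRNA (miRNA) genes were examined in the lists of 1000-bp tiles that differed in DNA methylation between clones of SKOV3, an established line of human ovarian cancer cells that look mesenchymal. A tile belonged to these regions when it lay on an autosome and overlapped a gene of type miRNA, extended by 2 kb on each side. Genes were those of GENCODE release 44 on GRCh37 (hg19). The miR-200 family, miR-203a, miR-205 and miR-34 genes were left out by definition, which left 2832 miRNA genes. Of all 69094 autosomal tiles listed in at least 1 of the 3 deposited tables, 586 lay around these genes. They belonged to 517 miRNA genes (18.3%).

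The study compared 4 clones, each with a single library of reduced representation bisulfite sequencing (RRBS), so that no clone had a replicate. LY75 (CD205) is an endocytic receptor studied here for its part in the epithelial-mesenchymal transition (EMT). ShC-S carried a control shRNA, and ShLy75-S carried a shRNA against LY75. In Ly75-KO-S, LY75 was suppressed by CRISPR. Ly75-OV-S was made by expressing a LY75 cDNA that resists the shRNA. The study names the cells used for this as sh-LY75-S, its LY75 knockdown cells, so Ly75-OV-S carried the knockdown and lineage of ShLy75-S. According to the study's methods the shRNA vectors came in lentivirus, and stably transduced cells were selected with puromycin. ShC-S and Ly75-OV-S were described as mesenchymal, and ShLy75-S and Ly75-KO-S as epithelial. The tables covered ShC-S vs ShLy75-S, Ly75-KO-S vs Ly75-OV-S, and a mix that set both mesenchymal clones against both epithelial clones.

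The tables hold the tiles past the authors' thresholds, with no reads and no methylation level per library, so the depth behind each tile is unknown and no test between clones could be made. The values below describe which tiles were listed. They give no direction of change, because the signed differences are the authors' own comparisons and were not used here. A Ly75-KO-S library and a Ly75-OV-S library differ in how each clone was made as well as in LY75, and clone and condition cannot be told apart with 1 library per clone.

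A miRNA gene is transcribed as a long precursor that folds into a hairpin of about the size of the annotated gene. The hairpin is cut to a mature strand, which pairs with messenger RNAs mainly through its seed and represses them. Many miRNA genes lie in introns of protein-coding genes or in long non-coding RNAs (lncRNAs) and share their promoters, and DNA methylation at CpG-rich promoters is a known route to silencing of miRNAs in cancer. The annotated gene is the hairpin, so a tile at the hairpin is not in general a tile at the promoter.

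The hairpins of 15 miRNA genes overlapped a tile that both single comparisons listed. The mature sequences of the 11 of these genes that the RefSeq table of GRCh38.p14 holds are shown, because their own hairpins overlapped such a tile. For MIR1250 only the end of the hairpin did. The seed, bases 2 to 8, is in capitals.
hsa-miR-320b: aAAAGCUGgguugagagggcaa
hsa-miR-4274: cAGCAGUCccucccccug
hsa-miR-4462: uGACACGGaggguggcuugggaa
hsa-miR-4475: cAAGGGACcaagcauucauuau
hsa-miR-607: gUUCAAAUccagaucuauaac
hsa-miR-3163: uAUAAAAUgagggcaguaagac
hsa-miR-1203: cCCGGAGCcaggaugcagcuc
hsa-miR-1250-3p: aCAUUUUCcagcccauuca
hsa-miR-1250-5p: aCGGUGCUggauguggccuuu
hsa-miR-298: aGCAGAAGcagggagguucuccca
hsa-miR-4533: uGGAAGGAgguugccggacgcu
hsa-miR-1-5p: aCAUACUUcuuuauaugcccau
hsa-miR-1-3p: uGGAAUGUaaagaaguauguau
No seed was shared among these sequences. In the same RefSeq table the seed of hsa-miR-1-3p was also that of hsa-miR-206 and hsa-miR-613, and the seed of hsa-miR-320b was also that of hsa-miR-320c, hsa-miR-320d and hsa-miR-4429. For the other sequences printed here the table held no second miRNA with that seed.

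RRBS reads the ends of MspI fragments, so a CpG can be read only where a fragment end lies within a read length of it. The share of reachable tiles listed was therefore counted, where a tile was called reachable if it held a CpG within the first or last 50 bases of an MspI fragment of 40 to 220 bp in the reference. Around miRNA genes, 3124 of 13561 tiles were reachable. Which tiles the authors could test is not known, and the rule missed some of them. Out of reach were 13 of the 437 listed tiles around miRNA genes in ShC-S vs ShLy75-S. So were 12 of 207 in Ly75-KO-S vs Ly75-OV-S and 5 of 184 in the mix. Over all listed autosomal tiles the counts were 3230 of 48940, 2558 of 26775 and 1092 of 20067. Such tiles are left out of the shares. The intervals given are 95% Wilson intervals, which cover counting error and treat neighbouring tiles as independent.

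In ShC-S vs ShLy75-S, 437 tiles around miRNA genes were listed, at 395 genes. Of the reachable tiles 13.6% were listed (12.4 to 14.8%), beside 12.4% over all reachable autosomal tiles, and the lower bound equalled that share to the digits given. In Ly75-KO-S vs Ly75-OV-S, 207 tiles at 212 genes were listed, as a tile can serve several clustered genes. The share was 6.24% (5.45 to 7.15%), beside 6.57% over all reachable autosomal tiles. In the mix, 184 tiles at 183 genes were listed, 5.73% of the reachable tiles (4.97 to 6.60%), beside 5.15% over all. Tiles around miRNA genes were thus listed at about the rate of other tiles in each table, and ShC-S vs ShLy75-S listed more of them than Ly75-KO-S vs Ly75-OV-S, as it did over the whole genome.

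**Figure D1:**
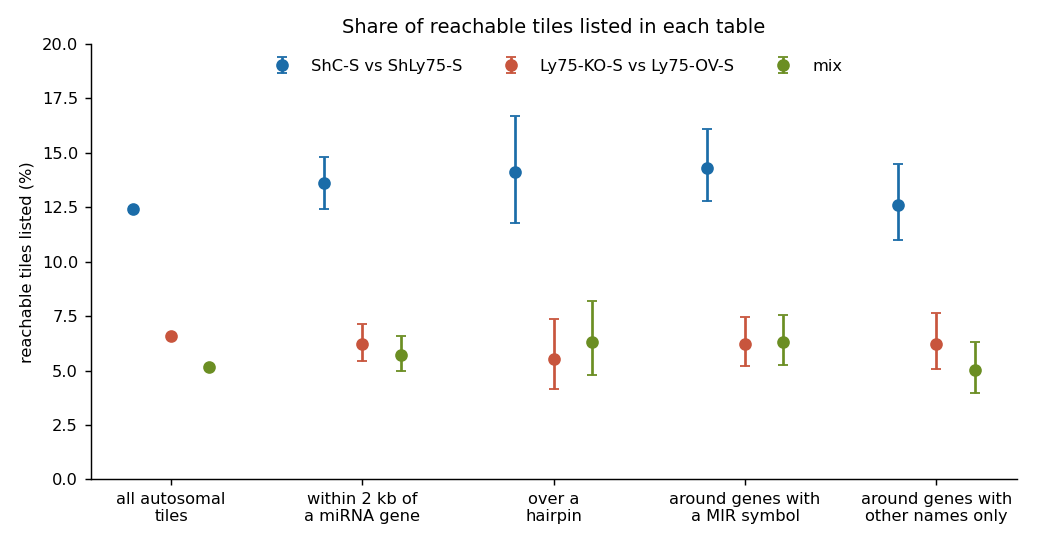
Percent of reachable tiles listed (y axis) in each table, for all autosomal tiles, for tiles within 2 kb of a miRNA gene, for those over a hairpin, and for those around genes with and without a MIR symbol. Points are shares, bars are 95% Wilson intervals, and the shares around miRNA genes, 13.6%, 6.24% and 5.73%, lie close to those over all tiles.

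The annotation holds 1217 miRNA genes with a MIR symbol and 1615 with a clone or other name, many of which are predicted. Tiles around genes with a MIR symbol were listed at 14.3% (12.8 to 16.1%) in ShC-S vs ShLy75-S, 6.24% (5.2 to 7.48%) in Ly75-KO-S vs Ly75-OV-S and 6.30% (5.25 to 7.55%) in the mix. Over all autosomal tiles the shares were 12.4%, 6.57% and 5.15%. The intervals of ShC-S vs ShLy75-S and the mix lay just above these, and that of Ly75-KO-S vs Ly75-OV-S held its share. The comparison was not matched for CpG number, and the mix holds the same libraries as the single comparisons. Listed tiles around genes with a MIR symbol had medians of 27, 23 and 28 CpGs, against 19, 17 and 19 over all listed autosomal tiles. For tiles around the other genes alone the shares were 12.6%, 6.24% and 5.02%. The intervals of the kinds of gene overlapped in every table.

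The share listed did not peak at the hairpin. In the bin centred on the hairpin, 13.9%, 5.92% and 6.18% of the reachable tiles were listed in ShC-S vs ShLy75-S, Ly75-KO-S vs Ly75-OV-S and the mix. From 10 kb before to 10 kb after the hairpin the share in ShC-S vs ShLy75-S ran from 11.5% to 16.0%, with its highest value 7 kb before the hairpin. That in Ly75-KO-S vs Ly75-OV-S ran from 4.67% to 8.28%. Close neighbours share tiles, so the bins are not independent of each other.

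**Figure D2:**
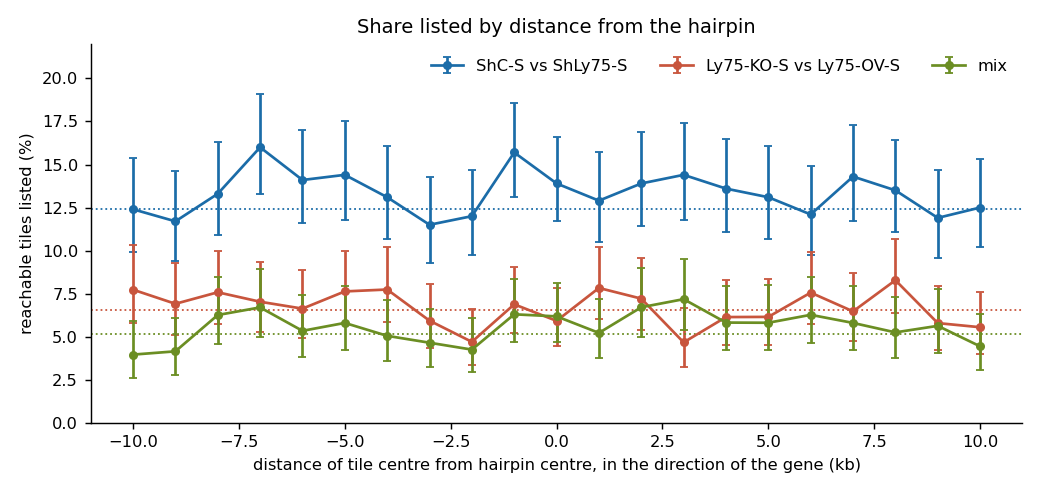
Percent of reachable tiles listed (y axis) by the distance in kb of the tile centre from the hairpin centre (x axis, in the direction of the gene), with 95% Wilson intervals. Dotted lines give the shares over all autosomal tiles, 12.4%, 6.57% and 5.15%, and the bin at the hairpin lies near them.

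The number of CpGs in the tile went with different shares in the single comparisons. Listed tiles around miRNA genes held a median of 25 CpGs in ShC-S vs ShLy75-S (quartiles 16 and 41), 20 in Ly75-KO-S vs Ly75-OV-S (13.5 and 28) and 25 in the mix (17 and 42). All listed autosomal tiles had medians of 19, 17 and 19 CpGs. The reachable tiles around miRNA genes, listed or not, already had a median of 23 CpGs, against 19 over all reachable tiles. Among tiles around miRNA genes with 40 CpGs or more, 116 of 721 were listed in ShC-S vs ShLy75-S (16.1%, 13.6 to 18.9%) and 16 of 721 in Ly75-KO-S vs Ly75-OV-S (2.22%, 1.37 to 3.57%). Over all autosomal tiles of that class the shares were 17.1% and 3.84%, so the same order held without regard to miRNA genes. In the latter comparison the whole interval around miRNA genes lay below the share over all tiles. In every other class of CpG number and table the interval held the share over all tiles.

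**Figure D3:**
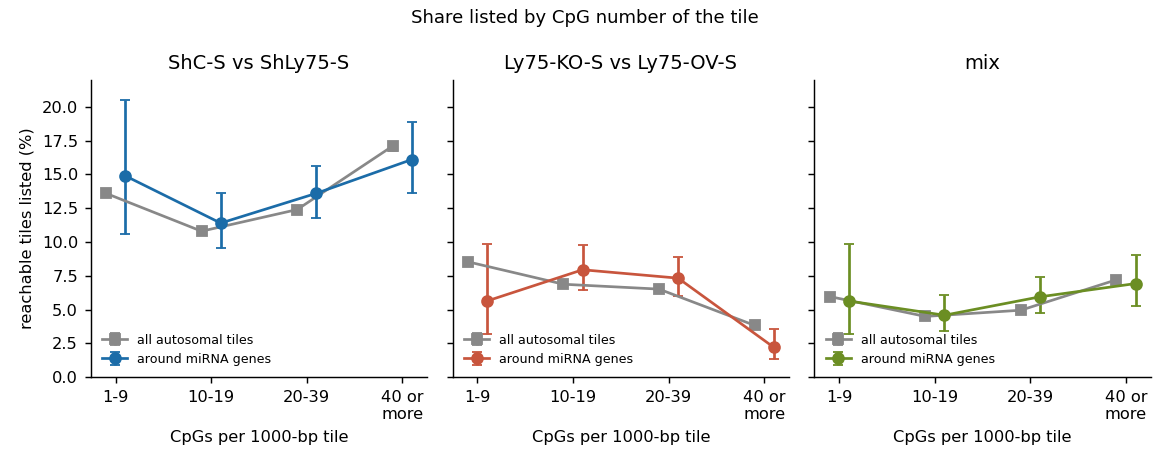
Percent of reachable tiles listed (y axis) by the number of CpGs per tile (x axis), in 1 panel per table. Coloured circles are tiles around miRNA genes and grey squares all autosomal tiles, with 95% Wilson intervals. At 40 CpGs or more the shares around miRNA genes are 16.1%, 2.22% and 6.93%.

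Of the listed tiles around miRNA genes, 118 of 437 in ShC-S vs ShLy75-S also lay within 2 kb of the transcription start site (TSS) of a protein-coding gene (27.0%), as did 36 of 207 in Ly75-KO-S vs Ly75-OV-S (17.4%) and 54 of 184 in the mix (29.3%). Over all listed autosomal tiles these shares were 17.7%, 12.3% and 18.2%. Counted against reachable tiles, the shares around miRNA genes were not higher in the single comparisons: near a protein-coding TSS 12.8% (10.8 to 15.2%) of the tiles around miRNA genes were listed in ShC-S vs ShLy75-S, beside 14.1% over all such tiles, and 3.79% (2.72 to 5.24%) in Ly75-KO-S vs Ly75-OV-S, beside 5.21%. In the mix the shares were 6.01% (4.64 to 7.76%) and 6.0%. All 3 intervals held the share over all such tiles. Outside protein-coding genes and their promoters, 16.8% (14.6 to 19.3%) of the tiles around miRNA genes were listed in ShC-S vs ShLy75-S, beside 13.8% over all such tiles. In the mix the values were 7.17% (5.73 to 8.94%) and 5.70%, and in Ly75-KO-S vs Ly75-OV-S they were 8.07% (6.54 to 9.92%) and 7.40%. The first of these intervals lay above the share over all tiles, that of the mix lay just above it, and that of Ly75-KO-S vs Ly75-OV-S held it.

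By chromosome, the interval around miRNA genes lay above the share over all tiles of the same chromosome for 3 of 22 chromosomes in ShC-S vs ShLy75-S and for 0 of 22 in Ly75-KO-S vs Ly75-OV-S, and it lay below for 0 in either. In the mix it lay above for chromosomes 4 and 14. The 3 in ShC-S vs ShLy75-S were chromosome 9 (18.6%, beside 12.3%), chromosome 14 (19.4%, beside 12.7%) and chromosome 18 (29.4%, beside 14.1%). The last rests on 15 listed of 51 reachable tiles.

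Both single comparisons listed 68 identical tiles around miRNA genes, at 69 genes. These comparisons share no library, but Ly75-OV-S was derived from the knockdown cells of ShLy75-S, so they are not independent in lineage. Direction of change was not read, so a tile in both may have differed in opposite directions. The 68 tiles were 15.6% (12.5 to 19.3%) of those in ShC-S vs ShLy75-S, beside 16.0% for all autosomal tiles. They were 32.9% (26.8 to 39.5%) of those in Ly75-KO-S vs Ly75-OV-S, beside 29.2% for all. The sharing around miRNA genes was thus near that of the whole tables. Of the 68 tiles 32 lay outside protein-coding genes and promoters, 22 inside a protein-coding gene beyond 2 kb of a TSS, and 14 within 2 kb of a protein-coding TSS. They held a median of 20 CpGs. The mix, which is made of the same 4 libraries, listed 28 of the 68 (41.2%), and 3984 of the 7825 over all autosomal tiles (50.9%).

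Of the 15 hairpins that overlapped a tile of both single comparisons, 4 lay in a protein-coding gene, 4 in a lncRNA gene and 7 in neither. Their tiles held 7 to 61 CpGs, of which 2 to 14 were in reach of reads, and 6 of the 15 tiles were also listed in the mix. One tile lay within 2 kb of a protein-coding TSS. Of the hairpins 7 hold no CpG, 5 hold CpGs out of reach and 3 hold a CpG in reach, so a listed tile mostly reports CpGs beside the hairpin.

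MIR1250 (chr17:79106996-79107108, minus strand) lies in an intron of AATK, which encodes a neuronal tyrosine kinase, 349 bp from the nearest annotated start of that gene. Of its 5 reachable tiles ShC-S vs ShLy75-S listed 3, Ly75-KO-S vs Ly75-OV-S 3 and the mix 2. The tiles at chr17:79105001-79106000 and chr17:79106001-79107000 were in all tables, and no other gene had a hairpin tile and a second tile in both single comparisons. They held 24 and 29 CpGs. Only the end of the hairpin, from chr17:79106996, lay in the second of these tiles. The rest lay in chr17:79107001-79108000, which was out of reach and listed in no table.

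MIR1-1 (chr20:61151510-61151586, plus strand) and MIR133A2 (chr20:61162119-61162220, plus strand) are 10.5 kb apart in the lncRNA gene MIR1-1HG, and encode miR-1 and miR-133a, which are known for their roles in muscle. At MIR133A2 all 5 reachable tiles, chr20:61160001-61165000, were listed in ShC-S vs ShLy75-S. Among tiles around miRNA genes this was the longest run of adjacent listed tiles in any table. It filled the tiles searched around MIR133A2, so whether it went on beyond them was not examined. Ly75-KO-S vs Ly75-OV-S listed 0 of these 5 tiles and the mix 3. At MIR1-1, 3 of 5 reachable tiles were listed in ShC-S vs ShLy75-S, 1 in Ly75-KO-S vs Ly75-OV-S and 2 in the mix. The tile over the MIR1-1 hairpin, with 41 CpGs, was in both single comparisons and was absent from the mix. Of their relatives, values are given for MIR133B and MIR206 on chromosome 6 alone. Both, looked up after these values were seen, had 0 reachable tiles and 0 listed.

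MIR4274 (chr4:7461755-7461845, plus strand) lies in an intron of SORCS2, which encodes a sortilin-family receptor. Its hairpin tile, with 17 CpGs, was in all tables, and the next tiles at chr4:7462001-7464000 were in ShC-S vs ShLy75-S alone. MIR320B1 (chr1:117214371-117214449, plus strand), a member of the miR-320 family, lies 3994 bp from the nearest protein-coding start, that of IGSF3. Its hairpin tile, with 9 CpGs of which 2 were in reach, was in all tables. The hairpin tile of MIR4475 (chr9:36823536-36823596, minus strand), in an intron of a lncRNA, was also in all tables, with 11 CpGs.

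MIR298 (chr20:57393281-57393368, minus strand) lies 21405 bp from the nearest annotated start of GNAS, an imprinted gene for a G protein subunit. Its hairpin tile, with 15 CpGs, was in both single comparisons and absent from the mix. The same held for the hairpin tiles of MIR607, of MIR3163 in an intron of PC (pyruvate carboxylase), of MIR1203 in an intron of SKAP1 (a T-cell adaptor), of MIR4462 and of MIR4533 in MIR646HG. It held as well for AC139451.1 and for TRNAI2, which the annotation types as miRNA although its symbol is that of a transfer RNA. The tiles of the predicted genes AL354933.1 and AL901608.1 were in all tables.

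Among the genes with most listings, counted as tiles times tables, MIR1250 and MIR133A2 had 8 each, and AC009336.1 and MIR1-1 had 6 each. The remaining genes had 5 each and were taken in genome order from a tie, which left out MIR543, AC026495.1, MIR4740, MIR3189 and MIR935. AC009336.1 (chr2:176973371-176973458, plus strand) is a predicted miRNA gene in an intron of HOXD11, which encodes a homeobox factor of limb and body-axis patterning. All 4 of its reachable tiles, chr2:176971001-176975000, were in ShC-S vs ShLy75-S, 2 in the mix and 0 in Ly75-KO-S vs Ly75-OV-S. They held 27 to 128 CpGs, and all of them lay within 2 kb of a protein-coding TSS. The hairpin lies 1363 bp from the nearest protein-coding start, that of HOXD11.

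MIR129-2 (chr11:43602944-43603033, plus strand) encodes miR-129, known as a miRNA silenced by methylation in several cancers, and lies in an intron of a lncRNA. The 3 adjacent tiles at chr11:43602001-43605000 were in ShC-S vs ShLy75-S, and both tiles over its hairpin, with 54 and 53 CpGs, were in the mix too. Ly75-KO-S vs Ly75-OV-S listed 0 of its 6 reachable tiles. MIR129-1, the other gene of miR-129, had 1 reachable tile and 0 listings.

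MIR192 (chr11:64658609-64658718, minus strand) encodes miR-192, which is known as a p53-responsive miRNA that acts on ZEB factors of EMT, and lies in an exon of the lncRNA MIR194-2HG. Its hairpin tile was in ShC-S vs ShLy75-S and the mix, and the tile before the hairpin, chr11:64659001-64660000 with 20 CpGs, was in all tables. MIR4669 (chr9:137271257-137271318, plus strand) lies in an exon of RXRA, the retinoid X receptor gene, 116 bp from an annotated start. Its tiles at chr9:137270001-137273000 were in ShC-S vs ShLy75-S, and the first of these was in Ly75-KO-S vs Ly75-OV-S. The predicted gene AL590226.1 had 3 tiles in ShC-S vs ShLy75-S and its hairpin tile in Ly75-KO-S vs Ly75-OV-S.

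**Figure D4:**
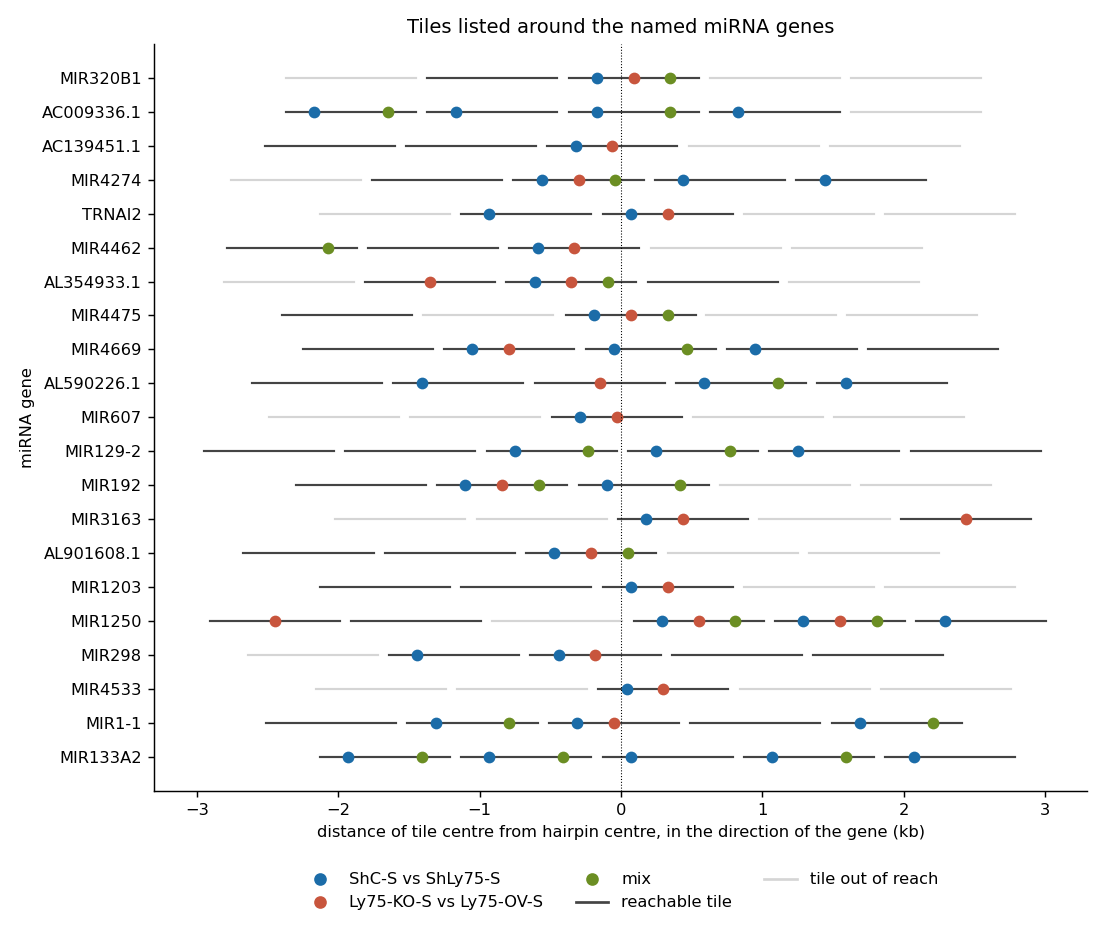
Tiles around the genes named here by hairpin or by number of listings, by the distance in kb of the tile centre from the hairpin centre (x axis, in the direction of the gene). Each short line is a tile, dark when reachable, and its coloured points mark the tables that listed it. All 5 tiles of MIR133A2 carry a point for ShC-S vs ShLy75-S and 0 for Ly75-KO-S vs Ly75-OV-S.

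Runs of 3 or more adjacent listed tiles around a miRNA gene were found in ShC-S vs ShLy75-S alone: 1 of 5 tiles at MIR133A2, 1 of 4 at AC009336.1 and 6 of 3 tiles, those at MIR4274, MIR4669, MIR129-2, MIR1250 and, named after their values were seen, MIR4649 and MIR935. The longest runs in the other tables had 2 tiles. ShC-S vs ShLy75-S lists 48940 autosomal tiles against 26775 in Ly75-KO-S vs Ly75-OV-S, and the difference in runs was not tested. Runs were counted only within the tiles around miRNA genes, so the extension of 2 kb limits their length. Runs over all autosomal tiles were not counted.

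By the fragment rule above, reads can reach a CpG within the hairpin itself at 281 of 2832 genes (9.92%). The tile over such a hairpin was listed for 46 genes in ShC-S vs ShLy75-S (16.4%), 13 in Ly75-KO-S vs Ly75-OV-S (4.63%) and 20 in the mix (7.12%). Those are shares of genes, which can share a tile, and no interval is given for them. Counted as distinct tiles, the shares over all reachable tiles that overlap a hairpin were 14.1% (11.8 to 16.7%), 5.53% (4.15 to 7.35%) and 6.29% (4.8 to 8.2%). The intervals of these tile shares held the shares over all autosomal tiles, 12.4%, 6.57% and 5.15%. Hairpins with a CpG in reach are shown for the genes named by hairpin or by number of listings. There a listed tile can include the hairpin's own CpGs. They are given as DNA of GRCh37, 5′ to 3′ on the strand of the gene, with every CG in capitals. Hairpins of genes named from the lists alone are not shown, such as those of MIR9-1, MIR128-2 and MIR615, which also hold CpGs in reach.
MIR129-2: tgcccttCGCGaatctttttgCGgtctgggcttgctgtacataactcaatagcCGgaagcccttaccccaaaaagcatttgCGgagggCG
AC009336.1: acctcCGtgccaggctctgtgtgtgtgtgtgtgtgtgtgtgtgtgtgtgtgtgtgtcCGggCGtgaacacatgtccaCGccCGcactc
MIR133A2: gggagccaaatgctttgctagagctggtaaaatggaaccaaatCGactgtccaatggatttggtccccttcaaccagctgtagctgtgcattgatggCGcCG
MIR4533: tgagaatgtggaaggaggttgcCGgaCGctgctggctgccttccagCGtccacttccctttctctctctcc
MIR1203: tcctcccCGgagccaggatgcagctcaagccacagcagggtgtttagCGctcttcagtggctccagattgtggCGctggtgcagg
MIR4274: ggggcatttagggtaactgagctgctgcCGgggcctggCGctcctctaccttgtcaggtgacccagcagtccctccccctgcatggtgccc
In MIR129-2 all 6 CpGs were in reach, in AC009336.1 4 of 5, in MIR133A2 2 of 3, in MIR4533 3 of 3, in MIR1203 2 of 3 and in MIR4274 1 of 2. The tiles over MIR4533, MIR1203 and MIR4274 were in both single comparisons, whereas those over MIR129-2, AC009336.1 and MIR133A2 were in ShC-S vs ShLy75-S and not in Ly75-KO-S vs Ly75-OV-S.

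Lists of miRNA genes, 8 in all, were then described, beside the 24.5%, 13.0% and 11.3% of all 1590 miRNA genes with a reachable tile that had a listed tile in ShC-S vs ShLy75-S, Ly75-KO-S vs Ly75-OV-S and the mix. Members of a list often share tiles and several genes are on more than 1 list, so each list is also given by its distinct reachable tiles. Genes without a match in the annotation were not used, so some lists are described in part. Matched were 14 of 20 neural genes, 27 of 39 methylation-silenced, 39 of 50 EMT-linked and 3 of 9 of the miR-17 clusters. So were 47 of 50 of the DLK1-DIO3 cluster, 48 of 50 of the chromosome 19 cluster, 5 of 6 HOX-embedded and all 10 of let-7. The lists were written with earlier results of these data known, and the mix holds the same libraries as the single comparisons. An interval that lies above a share is therefore only a description and was not tested.

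The DLK1-DIO3 cluster on chromosome 14 is an imprinted region that holds many miRNA genes. Of its 47 annotated members 42 had a reachable tile, and 26 had a listed tile in ShC-S vs ShLy75-S, 16 in Ly75-KO-S vs Ly75-OV-S and 10 in the mix. These rest on few tiles: 8 of 31 reachable tiles were listed in ShC-S vs ShLy75-S (25.8%, 13.7 to 43.2%), 5 in Ly75-KO-S vs Ly75-OV-S (16.1%, 7.09 to 32.6%) and 3 in the mix (9.68%, 3.35 to 24.9%). In both single comparisons the lower bound lay just above the share over all tiles around miRNA genes, 13.6% and 6.24%. The tile chr14:101497001-101498000, with 31 CpGs, lies between MIR494 and MIR543 and was in both single comparisons. The tile chr14:101499001-101500000, with 17 CpGs, lies between MIR543 and MIR495 and was in all tables. MIR770, in an exon of the lncRNA MEG3, had its hairpin tile in ShC-S vs ShLy75-S and the mix. MIR337 and MIR665 had a tile in Ly75-KO-S vs Ly75-OV-S, and MIR431, antisense to an exon of RTL1, had 1 tile in each single comparison.

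The chromosome 19 cluster, whose miRNAs are known from placenta and embryonic cells, had 48 annotated members with 42 distinct reachable tiles. Of these 5 were listed in ShC-S vs ShLy75-S (11.9%, 5.19 to 25%), 4 in Ly75-KO-S vs Ly75-OV-S (9.52%, 3.77 to 22.1%) and 1 in the mix (2.38%, 0.422 to 12.3%). These intervals held the shares over all tiles around miRNA genes. The tile chr19:54173001-54174000, between MIR512-2 and MIR1323, was in all tables. MIR515-1, MIR519E and MIR520F, which lie close together, had 2 tiles each in ShC-S vs ShLy75-S, and MIR518C had 1 in Ly75-KO-S vs Ly75-OV-S.

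Of the neural list 14 genes were annotated, with 37 distinct reachable tiles. In ShC-S vs ShLy75-S 11 of these were listed (29.7%, 17.5 to 45.8%), in Ly75-KO-S vs Ly75-OV-S 3 (8.11%, 2.80 to 21.3%) and in the mix 5 (13.5%, 5.91 to 28.0%). Over all tiles around miRNA genes the shares were 13.6%, 6.24% and 5.73%. The intervals of ShC-S vs ShLy75-S and the mix lay above these, and that of Ly75-KO-S vs Ly75-OV-S held its share. MIR129-2 gave 3 of the listed tiles in ShC-S vs ShLy75-S and 2 in the mix. The comparison was not matched for CpG number. Tiles around miRNA genes with 40 CpGs or more were listed at 16.1% in ShC-S vs ShLy75-S and 6.93% in the mix. MIR219-1, a miRNA of oligodendrocyte maturation, had the tile chr6:33174001-33175000 in all tables, and its CpG-rich hairpin tile was in none. Both tiles lay within 2 kb of a protein-coding TSS. MIR9-1 had its hairpin tile, with 74 CpGs, in ShC-S vs ShLy75-S and the mix. MIR153-1, MIR128-2 and MIR153-2, each in an intron of a neural or neuroendocrine gene (PTPRN, ARPP21 and PTPRN2), had 1 tile each in ShC-S vs ShLy75-S. That of MIR153-1, with 68 CpGs, lay within 2 kb of a protein-coding TSS, and the tile over the MIR153-1 hairpin was out of reach.

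Among miRNAs known to be silenced by methylation in cancer, 27 were annotated, with 75 distinct reachable tiles. In ShC-S vs ShLy75-S 16 were listed (21.3%, 13.6 to 31.9%), in Ly75-KO-S vs Ly75-OV-S 6 (8.0%, 3.72 to 16.4%) and in the mix 8 (10.7%, 5.5 to 19.7%). The lower bound in ShC-S vs ShLy75-S equalled the share over all tiles around miRNA genes, 13.6%, to the digits given, and the other intervals held their shares. MIR126, the endothelial miRNA in an intron of EGFL7, had the tile chr9:139564001-139565000, with 39 CpGs, in all tables. MIR193B had the tile chr16:14399001-14400000 in both single comparisons, while its tile with 110 CpGs, of which 72 were in reach, was in none. MIR149, in an intron of GPC1, had 3 tiles in ShC-S vs ShLy75-S and 1 in the mix, all within 2 kb of a protein-coding TSS. MIR148A had 1 tile in ShC-S vs ShLy75-S.

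Of the EMT-linked list 39 genes were annotated, 25 with a reachable tile. In ShC-S vs ShLy75-S 9 of 55 distinct reachable tiles were listed (16.4%, 8.86 to 28.3%), in Ly75-KO-S vs Ly75-OV-S 4 (7.27%, 2.86 to 17.3%) and in the mix 9 (16.4%, 8.86 to 28.3%). The interval of the mix lay above the share over all tiles around miRNA genes, 5.73%, and those of the single comparisons held theirs, 13.6% and 6.24%. MIR192, described above, was the member with a tile in both single comparisons. MIR375, an epithelial and endocrine miRNA, had 1 tile in Ly75-KO-S vs Ly75-OV-S and another in the mix, and its hairpin tile with 86 CpGs was in none. MIR661, in an intron of PLEC, had 2 tiles in ShC-S vs ShLy75-S and 2 in the mix, all within 2 kb of a protein-coding TSS. MIR23B had 1 tile in ShC-S vs ShLy75-S.

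All 10 genes of the let-7 list, tumour-suppressive miRNAs that act on RAS and LIN28, were annotated, and 5 had a reachable tile. MIRLET7E, MIRLET7A3 and MIRLET7B had 1 tile each in ShC-S vs ShLy75-S, 3 of 12 distinct reachable tiles (25%, 8.89 to 53.2%), an interval that held the share of 13.6% over all tiles around miRNA genes. Ly75-KO-S vs Ly75-OV-S and the mix listed 0 of the 12, which allows a share of up to 24.2% (upper Wilson bound). Of the miR-17 clusters, known as growth-promoting miRNAs, MIR106B, MIR93 and MIR25 in MCM7 were matched. Their common hairpin tile was in Ly75-KO-S vs Ly75-OV-S, and another tile within 2 kb of them was in ShC-S vs ShLy75-S, so that each listed 1 of 4 distinct reachable tiles (25%, 4.56 to 69.9%) and the mix 0. Of 15 distinct reachable tiles around the miRNAs embedded in HOX clusters, 3 were listed in ShC-S vs ShLy75-S (20%, 7.05 to 45.2%), and 1 each in Ly75-KO-S vs Ly75-OV-S and the mix (6.67%, 1.19 to 29.8%). Among them MIR615 had 2 tiles in ShC-S vs ShLy75-S and 1 in the mix, MIR196B had 1 in ShC-S vs ShLy75-S and MIR196A2 had 1 in Ly75-KO-S vs Ly75-OV-S. All of these lay within 2 kb of a protein-coding TSS.

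**Figure D5:**
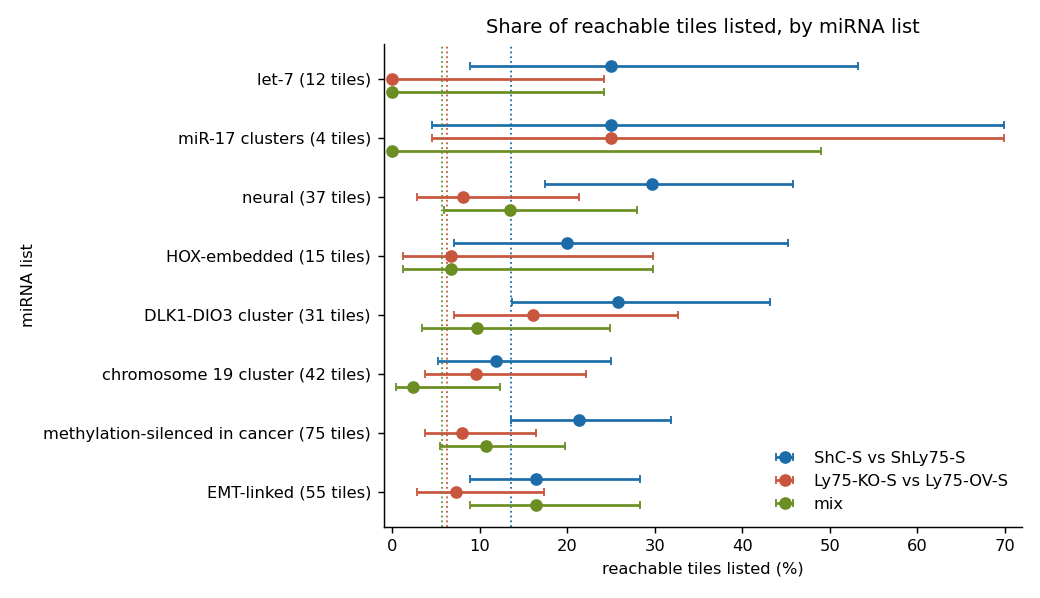
Percent of distinct reachable tiles listed (x axis) for 8 lists of miRNA genes (y axis, with the number of tiles), with 95% Wilson intervals. Dotted lines are the shares over all tiles around miRNA genes, and the highest share of a list with over 30 tiles is 29.7%, for the neural list in ShC-S vs ShLy75-S.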

How the data were processed

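RRBS libraries of 4 clones, 1 each, gave the methylation data. Per the labels and the methods, the authors cut DNA with MspI, sequenced single reads of 50 bases, trimmed them (Trim Galore 0.4.1 in the submitters' processing notes, Trimmomatic in the extract protocol), aligned them to hg19 with Bismark 0.16.1 and compared libraries with methylKit in tiles of 1000 bp. The methods give an adjusted p-value under 0.05 and over 25 percentage points as thresholds, and the names of the deposited tables an adjusted p-value of 0.01. The smallest coverage accepted is not given in the sources used here. Each deposited table gives tile positions and 3 columns of the authors' comparison: a difference in percent methylation, a p-value and a q-value. Those columns were not used, and nothing in the tables belongs to a single library.

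Listed positions were matched to GENCODE release 44 on GRCh37, whose chromosome lengths every tile respected. Of the excepted genes 9 were found, 1 of them under an older symbol (MIR203), and MIR205 was not among the genes of type miRNA. CpGs and MspI fragments came from the reference. No test was made. Shares have 95% Wilson intervals. The steps were checked on simulated sequence and tiles. Members and lists were chosen with earlier results of these data known. Genes were named by rule: hairpins that overlap a tile of both single comparisons, the 10 genes with most listings, and list members in both single comparisons with at most 4 others per list. The result for 1 gene so named is not reported here. Mature sequences were printed for the first kind, and hairpins with a CpG in reach were added for the first and second kinds. List genes were matched by symbol or older symbol, and unmatched ones were not used. Of 1217 MIR symbols 1104 matched the RefSeq table of miRNA sequences. Scripts ran under Python 3.11.15 with pandas 2.3.3, numpy 2.4.6, matplotlib 3.10.9 and scipy 1.17.1. Alternatives varied the extension, the gene set, the overlap, the fragment sizes, the CpG number and the TSS window.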

Additional observations from a re-analysis of the deposited data

How the results depend on the processing

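Of 102 values under alternatives, 68 stayed within 1.5 times the main count or within its interval, and 34 moved; values are given below for ShC-S vs ShLy75-S, Ly75-KO-S vs Ly75-OV-S and the mix, in that order. With no extension, so at the hairpin alone, 113, 46 and 50 tiles were listed at 115, 49 and 51 genes, 28, 3 and 15 of them near a protein-coding TSS, and 15 tiles were in both single comparisons. With an extension of 1 kb, ShC-S vs ShLy75-S listed 289 tiles, 78 near a TSS. With 5 kb, 860, 406 and 367 tiles were listed at 671, 412 and 345 genes, 217, 67 and 105 of them near a TSS, and 127 tiles were in both single comparisons. With MIR symbols alone, 254, 112 and 111 tiles were listed at 233, 123 and 109 genes, 39 tiles were in both single comparisons, 70 tiles of ShC-S vs ShLy75-S lay near a TSS, and 67 and 25 tiles of the single comparisons lay over a hairpin. These counts move because fewer or more genes or bases are searched. With MspI fragments of 20 to 300 bp the share listed in ShC-S vs ShLy75-S was 12%, beside 10.9% over all tiles. Outside 2 kb of a protein-coding TSS, an alternative chosen after seeing the data, the share in Ly75-KO-S vs Ly75-OV-S was 7.23%, beside 6.84% over all tiles. No paired analysis was possible because each clone has 1 library and the result comes from no test. The tables hold no read counts, so no coverage minimum could be varied.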
